A study of Mus musculus with 12 samples.

Results

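The collagen genes of diethylnitrosamine-induced liver tumours were followed in 12 libraries, of which 7 were made from Pck1-null animals (KO) and 5 from wild types (WT). Members were all genes of the count table whose symbol has the form of a collagen chain, Col with a type number, the letter a and a chain number. This gave 44 of 46095 genes, among them 11 fibrillar chains and 6 chains of the basement membrane type IV family. Diethylnitrosamine is a carcinogen that the liver's own enzymes activate and that causes hepatocellular carcinoma in mice, so tumours of both genotypes had the same carcinogen in common. The study compared the transcriptomes of these liver tumours to ask about the role of Pck1, the cytosolic enzyme that starts glucose synthesis from oxaloacetate. The labels give the genotype and the tumour model, while strain, sex, age, carcinogen dose and any cell type limit of the deletion are not in the labels used here. Nor is it said that each library is a mouse of its own, and the p-values therefore cover only the spread between libraries, which may be technical. KO and WT replicates were numbered in accession order and the numbers pair no samples. The genotype label of KO replicate 7 places it in KO, although its title carries the prefix KP.

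Collagens are extracellular proteins whose chains wind around each other into a rigid helix. Fibrillar collagens such as types I, III and V assemble into the cables of scar tissue, type IV forms the sheet-like network of basement membranes, type VI forms beaded filaments near cells, and FACIT collagens sit on the surface of fibrils. In liver, stellate cells and portal fibroblasts are the main makers of fibrillar collagen, endothelial cells and stellate cells make type IV, and hepatocytes are a known source of type XVIII, whose tail gives the fragment endostatin. The RNA of a whole tumour mixes all of these cells, so fewer cells of a type and less RNA per cell cannot be told apart in any result given here.

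Total counts ran from 17462102 to 46747125 per library, with a gap between 7 shallower libraries (KO replicates 1, 2, 3 and 7 and WT replicates 1, 3 and 4) and 5 deeper ones (KO replicates 4, 5 and 6 and WT replicates 2 and 5). Levels are given as CPM, the counts of a gene relative to the TMM-scaled library total or, to compare genes, as CPM per kilobase of the principal transcript (RPKM). Alb, the main hepatocyte product, was abundant in every library, and the summed CPM of the 10 hepatocyte markers ran from 82112 to 203370 in KO and from 81878 to 254640 in WT. Pck1 itself ran from 111 to 1166 CPM in KO, with a median of 219, and was 1694, 5592, 5593, 1061 and 5815 CPM in WT replicates 1 to 5. The highest KO library, replicate 3, lay above the lowest WT library, replicate 4. The log2 fold change of Pck1 was −3.28 ± 0.67 (SE), with an adjusted p of 0.170 in edgeR's quasi-likelihood test with Benjamini-Hochberg adjustment, which it did not pass. It passed in DESeq2 (adjusted p = 0.000123) and in limma-voom with sample weights (adjusted p = 0.0103), 6 of 7 KO libraries lay below every WT library, and the exact permutation p was 0.00379. Xist was above 10 CPM in 5 of 7 KO libraries and in 1 of 5 WT libraries. Libraries high and low in Xist were thus split unevenly between the genotypes, and the labels give no sex. A difference between genotypes therefore cannot be fully told apart from one between Xist-high and Xist-low libraries.

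Type XVIII dominated the collagen transcripts. Col18a1 stood first of the 44 by RPKM, at 183 ± 48.3 (SD, n = 7) in KO and 201 ± 43.3 (SD, n = 5) in WT, and the multiplexin class, which it forms with Col15a1, made up 61.9% of the summed collagen RPKM over all libraries. Fibrillar collagens made up 16.9%, type IV 14.8%, FACIT collagens 3.15% and type VI 2.75%. The 10 collagens of highest mean RPKM held 95.1% of the sum, and after Col18a1 they were Col4a1, Col4a2, Col5a2, Col3a1, Col1a2, Col1a1, Col14a1, Col6a1 and Col15a1. The place of Col5a2 rests on KO replicate 6: without that library its rank went from 4 to 8, and fibrillar collagens made up 13.3% and type IV 14.97%. Summed over all 44 genes, collagen RPKM was 299 ± 79.7 (SD, n = 7) in KO and 334 ± 31.3 (SD, n = 5) in WT. KO replicate 6 had the highest collagen sum, 449, and the other 6 KO libraries lay between 227 and 336, with 4 of the 7 below every WT library. The plot of member levels by library sets these out gene by gene.

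**Figure D1:**
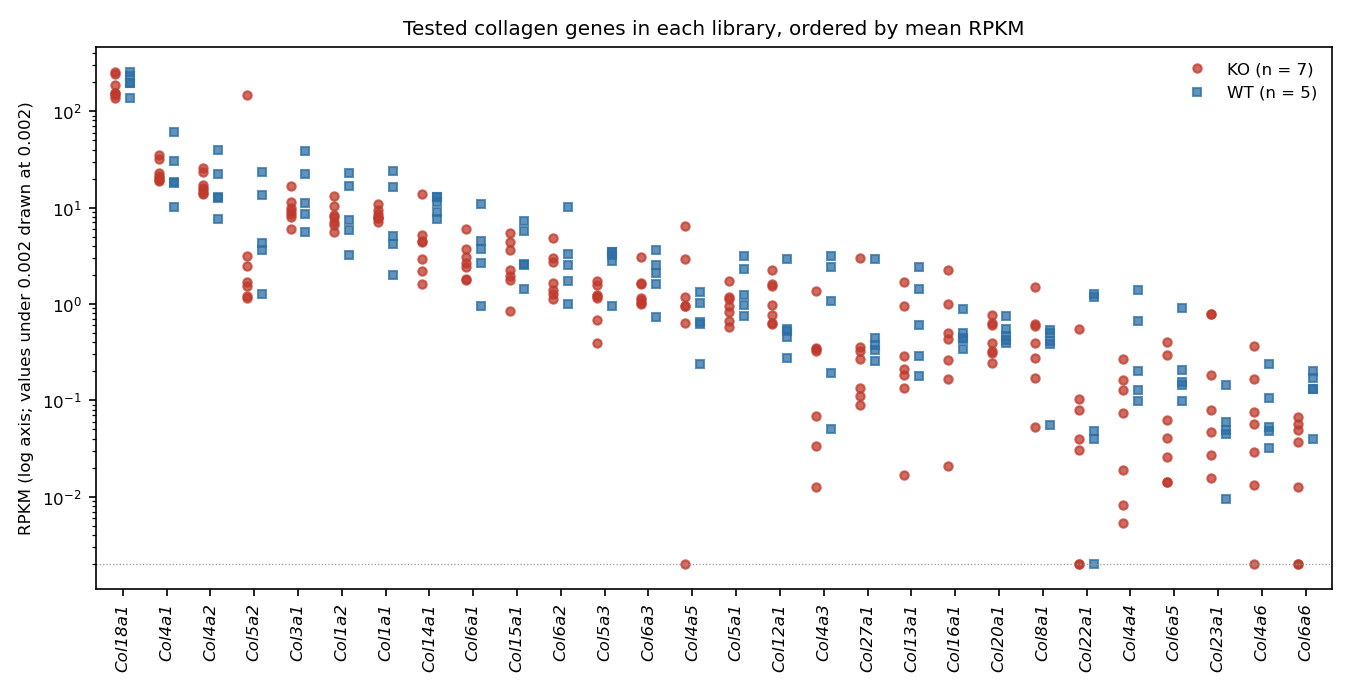
RPKM (log axis) of the 28 tested collagens, ordered by mean RPKM, with 1 point for each KO library (circles, n = 7) and WT library (squares, n = 5); values under 0.002 are drawn at 0.002. Col18a1 stands above all others in both genotypes, and the KO replicate 6 point of Col5a2 lies far above the remaining KO points of that gene.

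Of the 44 collagens, 28 had enough counts for the test. None of the 28 passed an adjusted p of 0.05 in edgeR's quasi-likelihood test, where 0 of all 14666 genes passed (0.0%). At an unadjusted p under 0.05, 4 collagens were lower in KO (Col5a3, Col6a6, Col4a4 and Col14a1), against 7.44% of all genes tested, and 0 of 28 were higher, against 7.25% of all genes. The fold change was negative for 21 of the 28, against 46.3% of all genes, and the median log2 fold change was −0.46, against 0.03 over all genes. A log2 fold change under −1 was found for 7 of 28 collagens and for 4.58% of all genes. Collagens were also found above 1, namely Col4a5 (1.28), Col5a2 (1.29) and Col23a1 (2.09), and the share of all genes above 1 was not computed. Collagens also varied more than most genes: the SD of log2 CPM over the 12 libraries had a median of 1.04 for the 28 collagens and 0.48 for all genes. It was smallest for Col18a1 (0.34) and largest for Col22a1 (2.64). Collagens and all genes were not matched for level here, and several of the 28 were rare. No collagen had KO and WT libraries that did not overlap, a separation that 0.58% of genes had downward and 0.634% upward. In 17 of the 28 at least 5 of 7 KO libraries lay below the WT mean, as in 33.8% of all genes.

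Other tests of the same counts called a few collagens. DESeq2 called 2 lower in KO, Col5a2 and Col5a3, against 1.65% of all genes called lower, and 0 of 28 higher, against 1.68%. The limma-voom test with sample weights called 3 lower, Col5a3 (adjusted p = 0.0138), Col6a6 (adjusted p = 0.0218) and Col14a1 (adjusted p = 0.0311), against 8.18% of all genes, and 0 higher, against 6.4%. Without sample weights limma-voom called none of the 28, with 3 lower and 0 higher at an unadjusted p under 0.05. Leaving out KO replicate 6 let edgeR call 1 collagen, Col14a1 (log2 fold change −1.63, adjusted p = 0.0425), of the 26 then tested, against 0.353% of all genes called lower. Leaving out WT replicate 4, the library with the most collagen maxima, brought the positive fold changes from 7 to 12 of 28 and the median to −0.14. With the Xist class as a covariate 6 of the 28 were lower at an unadjusted p under 0.05, against 6.18% of all genes, and the median was −0.78, against 0.01 over all genes. Col5a3 was called by 2 of these 4 tests, and Col5a2 had a positive fold change in edgeR and a negative one in the other 3. The plot of fold changes sets out all 28 with their errors and with the values of the shallower and deeper libraries.

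**Figure D2:**
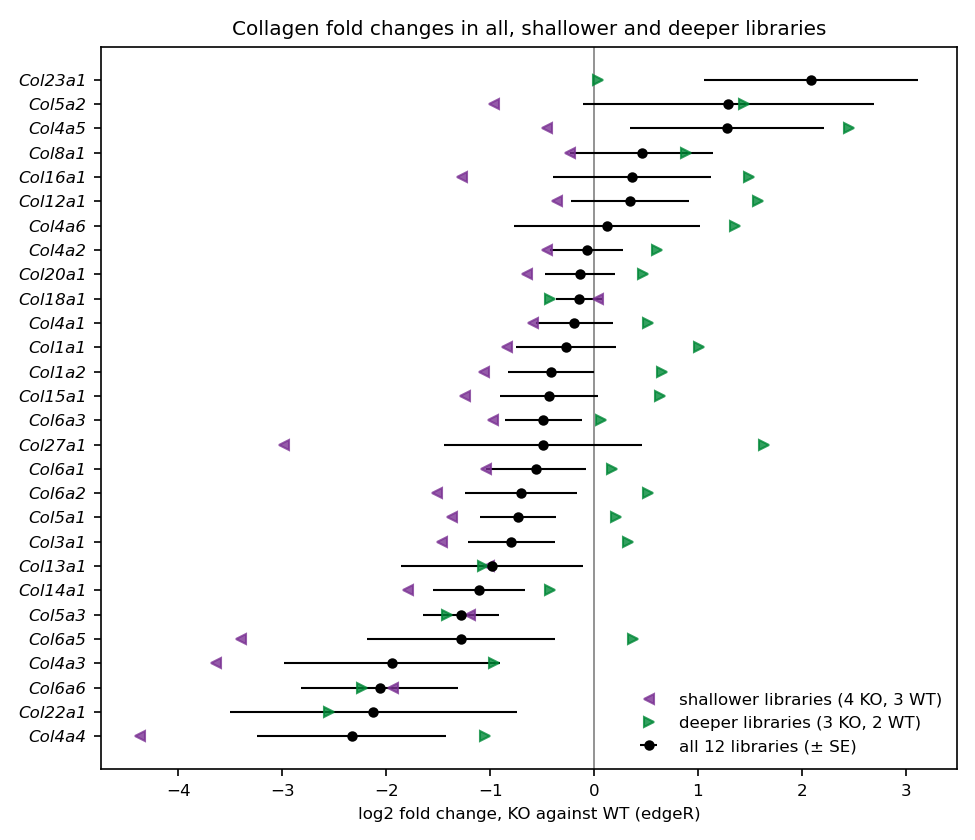
The log2 fold change of KO against WT (x axis, edgeR) for each of the 28 tested collagens, sorted: black points with standard errors for all 12 libraries, left-pointing triangles for the 7 shallower libraries and right-pointing triangles for the 5 deeper ones. Black points lie left of 0 for 21 collagens, and for 18 the triangles fall on opposite sides of 0, shallower to the left and deeper to the right.

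The sign of most collagen fold changes differed between shallower and deeper libraries, although no collagen passed the test of that difference. Among the 7 shallower libraries the fold change was negative for 24 of the 25 collagens that could be tested, while among the 5 deeper libraries it was positive for 20 of 28. In all, 18 collagens were negative among shallower and positive among deeper libraries, 6 were negative in both, and 0 were positive in both. The median log2 fold change among the shallower libraries was −1.06 for the collagens and −0.006 for all genes. Among the deeper ones it was 0.43 for the 30 collagens then tested and 0.07 for all genes. For Col1a1 the shallower libraries gave −0.84 and the deeper 1.01, and for Col3a1 these values were −1.46 and 0.33. In an edgeR fit with a genotype by depth class term the term was positive for 22 of 28 collagens, against 53.5% of all genes. None of the 28 passed after Benjamini-Hochberg adjustment (0.0% of all genes), and 5 had an unadjusted p under 0.05, against 9.55% of all genes. These 5 were Col27a1, Col5a1, Col6a5, Col3a1 and Col1a2. Of the 4 collagens lower at an unadjusted p under 0.05, all had negative values in both depth classes: Col5a3 −1.19 and −1.41, Col6a6 −1.93 and −2.23, Col4a4 −4.37 and −1.05, and Col14a1 −1.79 and −0.42. The other 2 with negative values in both were Col4a3 and Col13a1. Those 4 were picked for low values in the same libraries that the depth classes divide, so their negative signs in both classes are no separate support. Few libraries carry these values: the shallower WT include replicates 4 and 1, the highest of all 12 libraries in 8 and 5 of the 28 collagens. The deeper WT are replicates 2 and 5 alone, set against KO libraries that include replicate 6. What else differed between the depth classes was not tested.

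Among the fibrillar collagens, types I and III are the bulk of scar matrix. Col1a1, the alpha 1 chain of type I, ran from 41.7 to 65.2 CPM in KO with a median of 47.6, and was 141, 30.1, 11.7, 96.3 and 24.7 CPM in WT replicates 1 to 5. All 7 KO libraries thus lay inside the WT range: the KO libraries were close together (SD of log2 CPM 0.22) and the WT libraries were not (SD 1.47). The fitted log2 fold change of Col1a1 was −0.27 ± 0.48 (SE; adjusted p = 0.818), whereas its mean log2 CPM was 0.28 higher in KO, 5.64 against 5.37, so even the sign depended on the scale of averaging. Col1a2, its partner chain, ran from 30.0 to 70.3 CPM in KO with a median of 43.0, and was 123, 39.8, 17.1, 90.3 and 31.4 in WT. Again every KO library lay inside the WT range, and the log2 fold change was −0.42 ± 0.41. Col3a1, the single chain of type III, ran from 33.1 to 93.5 CPM in KO with a median of 50.9, and was 215, 62.1, 31.0, 124 and 47.4 in WT. WT replicates 1 and 4 were again the 2 highest libraries and WT replicate 3 the lowest. Its log2 fold change was −0.79 ± 0.42 (SE; edgeR adjusted p = 0.397).

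RefSeq's GRCm38.p6 table holds a start site window, from 250 bases before to 50 after the start, for 35 of the 44 collagens. Those of Col1a2 (plus strand, chr6:4505368-4505667) and Col3a1 (plus strand, chr1:45311288-45311587) are shown because the genes are the leading type I and type III chains with a window; capitals mark matches to the GC box core GGGCGG, to the CCAAT box or to the TATA box letters TATAAA, each on either strand.
Col1a2: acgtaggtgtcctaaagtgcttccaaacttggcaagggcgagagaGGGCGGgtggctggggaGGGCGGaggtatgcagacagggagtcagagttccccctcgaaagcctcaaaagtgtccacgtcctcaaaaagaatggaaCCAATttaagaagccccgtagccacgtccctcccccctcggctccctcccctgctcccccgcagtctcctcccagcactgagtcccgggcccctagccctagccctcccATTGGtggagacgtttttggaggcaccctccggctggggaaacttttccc
Col3a1: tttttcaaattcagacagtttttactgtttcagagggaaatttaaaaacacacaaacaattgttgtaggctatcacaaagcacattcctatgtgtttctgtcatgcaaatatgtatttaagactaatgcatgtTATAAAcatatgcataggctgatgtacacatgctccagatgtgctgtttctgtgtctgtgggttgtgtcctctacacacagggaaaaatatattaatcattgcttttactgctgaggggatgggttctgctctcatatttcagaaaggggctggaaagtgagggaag
The Col1a2 window holds GGGCGG and CCAAT and no TATAAA, while the Col3a1 window holds TATAAA and neither of the others. Over the 38 windows of the 35 collagens, GGGCGG was found in 23 (60.5%), against 35.7% of all 32851 windows of the same length. CCAAT was found in 13 (34.2%, against 37.4%) and TATAAA in 5 (13.2%, against 13.6%). None of the 3 motifs contains another, and a match describes letters, not binding.

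Within a library, the ratio of each type I chain to Col3a1 was higher in KO than in WT. The ratio of Col1a1 to Col3a1 RPKM was 0.716, 0.910, 1.09, 0.828, 0.842, 0.654 and 1.35 in KO replicates 1 to 7, and 0.618, 0.455, 0.355, 0.728 and 0.490 in WT replicates 1 to 5. In 5 of 7 KO libraries it was above every WT library, and the other 2, KO replicates 1 and 6, lay below WT replicate 4. The mean was 0.913 ± 0.238 (SD, n = 7) in KO and 0.529 ± 0.146 (SD, n = 5) in WT. On the log2 scale the difference was 0.79, or 1.73-fold, with an exact two-sided permutation p of 0.00505, and 0.0158 after Benjamini-Hochberg adjustment over the 5 ratios computed. Leaving out any 1 library gave differences from 0.66 to 0.92, with 0.69 (exact permutation p = 0.0108) without KO replicate 7. Among the shallower libraries the difference was 0.87 (exact permutation p = 0.0857), and among the deeper ones 0.71, with 3 of 3 KO above both WT libraries and an exact permutation p of 0.1, the smallest that 3 against 2 allows. Among the Xist-low libraries it was 1.17, with both KO libraries above all 4 WT libraries and the smallest exact permutation p possible, 0.0667. Among the Xist-high libraries, which hold only WT replicate 4 for comparison, it was 0.19. Col1a2 over Col3a1 differed by 0.40 on the log2 scale, or 1.32-fold, with 6 of 7 KO libraries above every WT library and an exact permutation p of 0.00631 (adjusted 0.0158). Without any 1 library this difference was between 0.35 and 0.45, and it was 0.44, 0.34, 0.56 and 0.14 within the shallower, deeper, Xist-low and Xist-high libraries, where no exact permutation p was under 0.0667. These ratios were chosen after earlier results of these data had been seen.

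The other 3 ratios did not pass. Col1a1 over Col1a2, the balance of the type I chains, differed by 0.40 on the log2 scale (exact permutation p = 0.0467, adjusted 0.0779). Col4a1 over Col4a2 was 1.34 ± 0.0724 (SD, n = 7) in KO and 1.42 ± 0.0812 (SD, n = 5) in WT, with an exact permutation p of 0.115. The summed fibrillar over the summed type IV RPKM differed by −0.30 on the log2 scale, with an exact permutation p of 0.548. It was highest in KO replicate 6, at 3.08, and without that library the log2 difference was −0.60 (exact permutation p = 0.110). The plot of ratios by library shows 3 of the 5.

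**Figure D3:**
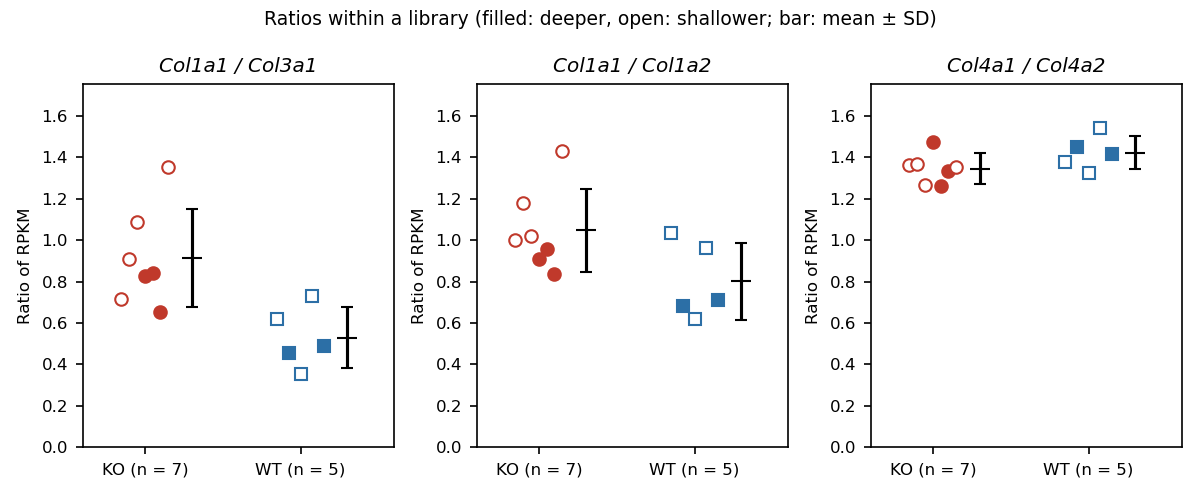
Ratio of RPKM within each library for Col1a1 over Col3a1, Col1a1 over Col1a2 and Col4a1 over Col4a2, by genotype, with 1 point a library (filled: deeper, open: shallower) and the mean ± SD as a bar beside them. For Col1a1 over Col3a1, KO libraries sit between 0.654 and 1.35 and WT libraries between 0.355 and 0.728, and the Col4a1 over Col4a2 ratio varies least.

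Type V collagen sets the diameter of type I fibrils, and its chains differed in behaviour. Col5a1 ran from 4.90 to 14.5 CPM in KO with a median of 7.95, and was 26.4, 10.4, 6.32, 19.4 and 8.14 CPM in WT. KO replicates 2 and 7 lay below every WT library, and the log2 fold change was −0.73 ± 0.37 (SE; edgeR adjusted p = 0.376). Col5a3, a chain of the type V family found with Col5a1 and Col5a2 in some tissues, ran from 2.41 to 10.6 CPM in KO with a median of 7.32, and was 5.86, 19.5, 20.9, 21.02 and 17.1 CPM in WT. All 7 KO libraries were below the WT mean and below 4 of the 5 WT libraries, and WT replicate 1 was the exception among the WT. Col5a3 had the smallest p of the 28, with a log2 fold change of −1.28 ± 0.37 (SE), 2.43-fold lower in KO, an edgeR adjusted p of 0.209 and an exact permutation p of 0.0215. Col27a1, a fibrillar chain known from cartilage, was at 23.0 CPM in KO replicate 5 and 22.4 CPM in WT replicate 4 and at most 3.40 CPM in the other 10 libraries. Its log2 fold change of −0.49 was −2.01 without KO replicate 5 and 0.80 without WT replicate 4.

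Col5a2, the alpha 2 chain of type V, was dominated by 1 library. It stood at 981 CPM in KO replicate 6, from 45543 counts, which was 47.5-fold above the next KO library. The other 6 KO libraries ran from 7.61 to 20.6 CPM, and WT replicates 1 to 5 were at 28.7, 156, 8.42, 24.3 and 89.6 CPM. KO replicate 6 and WT replicates 2 and 5 were thus the 3 high libraries, and all 3 are among the deeper ones. The log2 fold change was 1.29 ± 1.40 (SE; edgeR adjusted p = 0.679) with all libraries and −2.32 (adjusted p = 0.0971) without KO replicate 6, and it was 1.99 without WT replicate 2. DESeq2, which by default replaces an outlying count in a group of 7, gave −2.10 (adjusted p = 0.0193). The RPKM ratio of Col5a2 to Col5a1 was 85.9 in KO replicate 6, 19.1 in WT replicate 2 and 14.0 in WT replicate 5, and between 1.38 and 2.66 in the other 9. The gene lies 24614 bases from Col3a1 on chromosome 1, with both genes pointing towards each other. Of its neighbours on the other side, Wdr75 was at 12.6 CPM in KO replicate 6 and between 13.9 and 15.7 CPM in the other KO libraries. Slc40a1, the iron exporter ferroportin, was at 225 CPM in KO replicate 6, 1.61-fold above the next KO library, where the other 6 ran from 60.2 to 139 CPM and WT from 188 to 259 CPM.

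The class sum of fibrillar collagens turned on that gene. With all 11 chains it was 52.4 ± 61.8 RPKM (SD, n = 7) in KO and 53.4 ± 29.7 (SD, n = 5) in WT. Col5a2 was 77.0% of the sum in KO replicate 6, 45.1% in WT replicate 2, 37.3% in WT replicate 5, and from 4.20% to 8.56% in the others. Without Col5a2 the sum was 29.7 ± 7.36 (SD, n = 7; 22.2 to 44.2) in KO and 44.1 ± 31.7 (SD, n = 5; 15.3 to 89.8) in WT, so every KO library lay inside the WT range. The stacked plot of class sums shows the KO replicate 6 value and the wide WT spread.

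**Figure D4:**
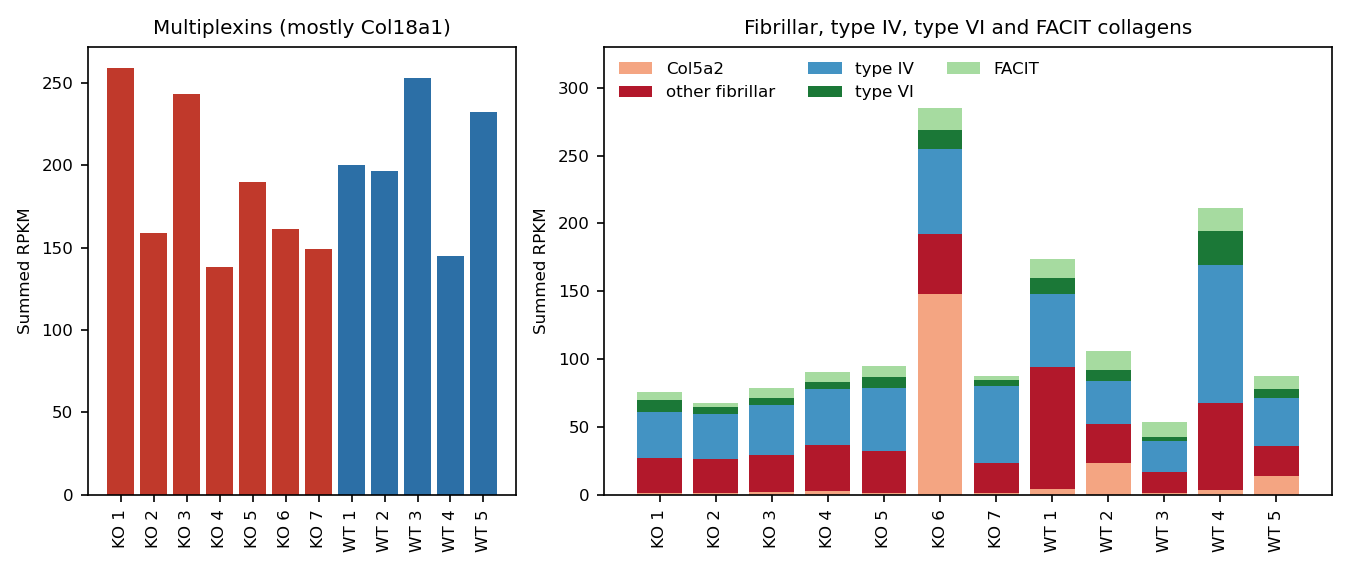
Summed RPKM in each library of the multiplexin class (left bars, KO red and WT blue) and of Col5a2, the other fibrillar collagens and the type IV, type VI and FACIT classes (right, stacked bars). The fibrillar sum of KO replicate 6 reaches 192, of which Col5a2 is 77.0%, against 23.4 to 36.4 in the other KO libraries.

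Type IV collagen is the scaffold of basement membranes. Its common chains, Col4a1 and Col4a2, are encoded head to head on chromosome 8, and their transcripts' starts lie 21 bases apart. Their windows are shown because they overlap: Col4a1 (minus strand, chr8:11312777-11313076) and Col4a2 (plus strand, chr8:11312555-11312854) share 78 bases, in capitals, as reverse complements of each other.
Col4a1: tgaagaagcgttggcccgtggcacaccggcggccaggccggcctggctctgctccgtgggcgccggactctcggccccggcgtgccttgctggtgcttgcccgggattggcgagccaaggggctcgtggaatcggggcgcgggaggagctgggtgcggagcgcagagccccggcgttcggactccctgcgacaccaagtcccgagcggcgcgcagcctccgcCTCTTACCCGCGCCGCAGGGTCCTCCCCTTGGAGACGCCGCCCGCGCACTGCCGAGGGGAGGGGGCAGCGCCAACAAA
Col4a2: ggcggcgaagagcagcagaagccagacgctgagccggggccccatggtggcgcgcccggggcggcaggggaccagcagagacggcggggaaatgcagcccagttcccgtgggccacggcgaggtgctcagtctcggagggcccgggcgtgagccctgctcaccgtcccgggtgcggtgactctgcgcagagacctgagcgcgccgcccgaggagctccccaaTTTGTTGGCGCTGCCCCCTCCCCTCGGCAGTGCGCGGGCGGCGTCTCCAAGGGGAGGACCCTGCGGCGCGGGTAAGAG
The annotated genes overlap by 22 bases, and with no strand setting known for the counting, reads in that stretch cannot be told apart. Col4a1 ran from 126 to 229 CPM in KO with a median of 142, and was 201, 120, 66.9, 402 and 121 CPM in WT. Col4a2 ran from 89.9 to 168 CPM in KO with a median of 103, and was 142, 80.5, 49.2, 254 and 83.3 CPM in WT. For both genes every KO library lay inside the WT range, with WT replicate 4 highest and WT replicate 3 lowest of all 12. The log2 fold changes were −0.19 ± 0.37 (SE; adjusted p = 0.837) and −0.07 ± 0.35 in edgeR's fit.

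The genes followed each other closely from library to library. Over the 12 libraries the log2 CPM of Col4a1 and Col4a2 correlated with Pearson's r = 0.992 and Spearman's rho = 0.979 (permutation p = 1e-05 for each, adjusted 5.5e-05 and 0.00011 over 11 pairs). Without WT replicates 4 and 3, the 2 farthest from the median, r was 0.981. Among the 7 KO libraries it was 0.977, and among the 7 shallower ones 0.997. Scaling and depth are common to both genes of a pair in a library.

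The other type IV chains form the specialised networks of kidney, lung and smooth muscle. Col4a3 ran from 0.108 to 11.5 CPM in KO with a median of 2.76, and was 9.21, 1.64, 27.1, 0.429 and 20.8 CPM in WT. Col4a4, its neighbour 71 bases away on chromosome 1, ran from 0.0538 to 2.70 CPM in KO with a median of 0.744, and was 2.02, 1.003, 14.0, 1.29 and 6.76 CPM in WT. WT replicates 3 and 5 were highest for both genes, and in Col4a4 all 7 KO libraries lay below the WT mean and 4 below every WT library. KO replicates 1, 2 and 3 held only 2, 1 and 4 counts of Col4a4, and KO replicate 2 held 2 counts of Col4a3. The log2 fold change of Col4a4 was −2.33 ± 0.91 (SE; edgeR adjusted p = 0.279; exact permutation p = 0.0505) and that of Col4a3 −1.95 ± 1.04 (adjusted p = 0.402). The chains of this pair correlated with r = 0.903 and rho = 0.902 (permutation p = 7e-05 and 0.00015, adjusted 0.000193 and 0.000697), and r was 0.828 without KO replicate 2 and WT replicate 3. Col4a5, on the X chromosome next to Col4a6, had 0 counts in KO replicate 2, where 3 counts would be 0.161 CPM. It was at 19.1 and 42.1 CPM in KO replicates 4 and 5 and between 1.54 and 8.72 CPM in WT, with a log2 fold change of 1.28 ± 0.94. Single libraries weighed on these rare chains: Col4a4 was at −1.48 (edgeR adjusted p = 0.516) without WT replicate 3, Col4a3 at −2.84 and Col4a5 at 0.52 without KO replicate 5, and Col4a6 at 0.77 without WT replicate 4, from 0.13 with all libraries. Summed type IV RPKM was 44.6 ± 11.5 (SD, n = 7) in KO and 49.2 ± 31.6 (SD, n = 5) in WT.

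All 5 tested type VI chains had negative fold changes, with a median of −0.70, and none passed edgeR's adjusted p. Of the 5, limma-voom with sample weights called Col6a6, as given above. Col6a1 ran from 7.19 to 24.7 CPM in KO with a median of 10.9, and was 18.4, 15.4, 3.86, 44.3 and 10.8 CPM in WT, a log2 fold change of −0.56 ± 0.48. Col6a2 ran from 4.43 to 19.1 CPM in KO with a median of 6.51, and was 13.0, 9.91, 3.93, 40.1 and 6.91 CPM in WT, a log2 fold change of −0.70 ± 0.54. Both genes had KO values inside the WT range, and their log2 CPM correlated with r = 0.936 and rho = 0.895 (permutation p = 1e-05 and 0.00019, adjusted 5.5e-05 and 0.000697), r being 0.896 without WT replicates 4 and 3. Col6a3, the largest chain of the usual type VI molecule, had −0.49 ± 0.37. Col6a6, one of the rarer chains that can take the place of Col6a3, ran from 0 to 0.585 CPM in KO with a median of 0.321, and was 1.49, 1.16, 0.351, 1.14 and 1.76 CPM in WT. All 7 KO libraries lay below the WT mean and 4 below every WT library, with 0 counts in KO replicates 2 and 7. The log2 fold change of Col6a6 was −2.06 ± 0.75 (SE; edgeR adjusted p = 0.259; exact permutation p = 0.0164), from 247 counts in all libraries together, the fewest of any tested collagen. Col6a5, another rare chain, had 5 of 7 KO libraries below every WT library and a log2 fold change of −1.28 ± 0.90. WT replicate 4, the highest library for Col6a1 and Col6a2, weighed on the class: without it Col6a1 was at 0.05, Col6a2 at 0.10 and Col6a5 at −0.29. Without KO replicate 6 Col6a5 was at −1.95. Summed type VI RPKM was 7.03 ± 3.63 (SD, n = 7) in KO and 10.8 ± 8.32 (SD, n = 5) in WT.

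Among the FACIT collagens, Col14a1 had the smallest p. Col14a1 encodes type XIV collagen, which lies on the surface of type I fibrils and regulates their growth. It was at 24.8, 12.4, 29.4, 25.5, 16.6, 79.4 and 9.15 CPM in KO replicates 1 to 7, and at 72.9, 64.1, 50.7, 72.3 and 43.6 CPM in WT replicates 1 to 5. In 6 of 7 KO libraries it lay below every WT library, and KO replicate 6 lay above every WT library. The log2 fold change was −1.10 ± 0.44 (SE), 2.15-fold lower in KO, with an edgeR adjusted p of 0.292 and an exact permutation p of 0.0202. KO replicate 6 was also the exception in the summed FACIT RPKM, which was 7.44 ± 4.38 (SD, n = 7) in KO and 13.2 ± 2.85 (SD, n = 5) in WT, with the other 6 KO libraries below every WT library. Col14a1 alone had a mean RPKM of 4.965 in KO and 10.7 in WT, so the FACIT sum largely repeats that gene.

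Col12a1, a FACIT collagen of dense connective tissue, had the opposite sign. It ran from 7.19 to 25.9 CPM in KO with a median of 11.3, and was 6.07, 6.31, 3.16, 33.7 and 5.18 CPM in WT. All 7 KO libraries lay above 4 of the 5 WT libraries and below WT replicate 4, and the log2 fold change was 0.35 ± 0.57. Without WT replicate 4 it was 1.41 (edgeR adjusted p = 0.228). Col16a1 had 0.36 ± 0.76, and −0.37 without KO replicate 5, and Col20a1 −0.13 ± 0.33. Col22a1, a collagen of tissue junctions, was at 4.82 CPM in KO replicate 6, 11.1 in WT replicate 2 and 10.3 in WT replicate 5 and at most 0.914 in the other 9 libraries, and its log2 fold change was −2.12 ± 1.38, with −3.59 (edgeR adjusted p = 0.192) without KO replicate 6 and −1.46 without WT replicate 2.

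The multiplexins are collagens of basement membrane zones. Col18a1 was at 1231, 744, 1162, 653, 887, 746 and 705 CPM in KO replicates 1 to 7, and at 932, 929, 1206, 660 and 1100 CPM in WT. The groups overlapped through their whole range, with 1 KO library above and 1 below every WT library, and the log2 fold change was −0.14 ± 0.22 (SE; edgeR adjusted p = 0.791). Col15a1 ran from 4.38 to 27.9 CPM in KO with a median of 11.7, and was 29.8, 13.2, 7.37, 37.6 and 13.3 CPM in WT. Its log2 fold change was −0.44 ± 0.47, and 1 of 7 KO libraries lay below every WT library. Across the 12 libraries the pair ran in opposite directions, with r = −0.579 and rho = −0.483 (permutation p = 0.0505 and 0.115, adjusted 0.0556 and 0.115), which did not pass, and r was −0.364 without KO replicate 3 and WT replicate 4. An antisense gene, Gm12426, overlaps exons of Col15a1, and reads of the 2 cannot be told apart without a known strand setting.

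The transmembrane and network-forming collagens were rare. Col13a1, a transmembrane collagen of cell adhesion sites, ran from 0.0538 to 5.34 CPM in KO with a median of 0.674, and was 1.92, 7.70, 0.912, 0.572 and 4.52 CPM in WT, a log2 fold change of −0.98 ± 0.88, with −1.71 without KO replicate 6 and −0.33 without WT replicate 2. Col23a1, another transmembrane collagen, ran from 0.0876 to 4.48 CPM in KO with a median of 0.452, and was 0.0533, 0.820, 0.281, 0.334 and 0.251 CPM in WT. Its lowest values rest on 2 counts in KO replicate 7 and 1 count in WT replicate 1. KO replicates 1, 3 and 4 lay above every WT library, and the log2 fold change of 2.09 ± 1.03 was the largest positive one (edgeR adjusted p = 0.369), with 0.03 among the deeper libraries and 2.72 without WT replicate 2. Col8a1, a network-forming collagen of vessel walls, ran from 0.269 to 7.73 CPM in KO with a median of 2.02, and was 2.72, 2.53, 0.281, 1.95 and 2.09 CPM in WT, a log2 fold change of 0.46 ± 0.69.

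The 16 collagens that were not tested had at most 0.946 CPM in any library. They include Col2a1, Col9a2, Col9a3, Col10a1, Col11a1 and Col11a2, the collagens of cartilage, and Col7a1 and Col17a1, which anchor the epidermis. Col8a2, the most abundant of them, had 146 counts over all libraries, and Col28a1, the highest of the class of other collagens, had 101. Col9a1 and Col19a1 had no count in any library, where 3 counts correspond to between 0.0535 and 0.211 CPM. Exons of Col10a1 and Col9a3 overlap those of Nt5dc1 and Tcfl5 on the opposite strand, so the few reads of these collagens are uncertain.

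Partner chains of the same molecule mostly went together across libraries, and Col5a2 was the exception on Pearson's scale. Col1a1 and Col1a2 correlated with r = 0.933 and rho = 0.846 (permutation p = 3e-05 and 0.00092, adjusted 0.00011 and 0.00202), with r = 0.822 without WT replicates 3 and 1. Col1a1 and Col3a1 were less close, with r = 0.808 and rho = 0.657 (permutation p = 0.00162 and 0.0237, adjusted 0.00297 and 0.0290), and r was 0.617 without WT replicates 3 and 1. Col5a1 and Col5a2 had r = 0.465 (permutation p = 0.123, adjusted 0.123) but rho = 0.797 (permutation p = 0.00322, adjusted 0.00506), and among the 7 shallower libraries, which hold none of the 3 high Col5a2 values, r was 0.951. Across classes, Col1a1 and Col4a1 had r = 0.824 and rho = 0.874 (permutation p = 0.00244 and 0.00044, adjusted 0.00383 and 0.00121), and r was 0.828 without WT replicates 3 and 1. Among the 7 shallower libraries r was 0.950 for Col1a1 and Col1a2, 0.837 for Col1a1 and Col3a1 and 0.820 for Col1a1 and Col4a1. The 5 deeper libraries are too few for a correlation of their own.

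**Figure D5:**
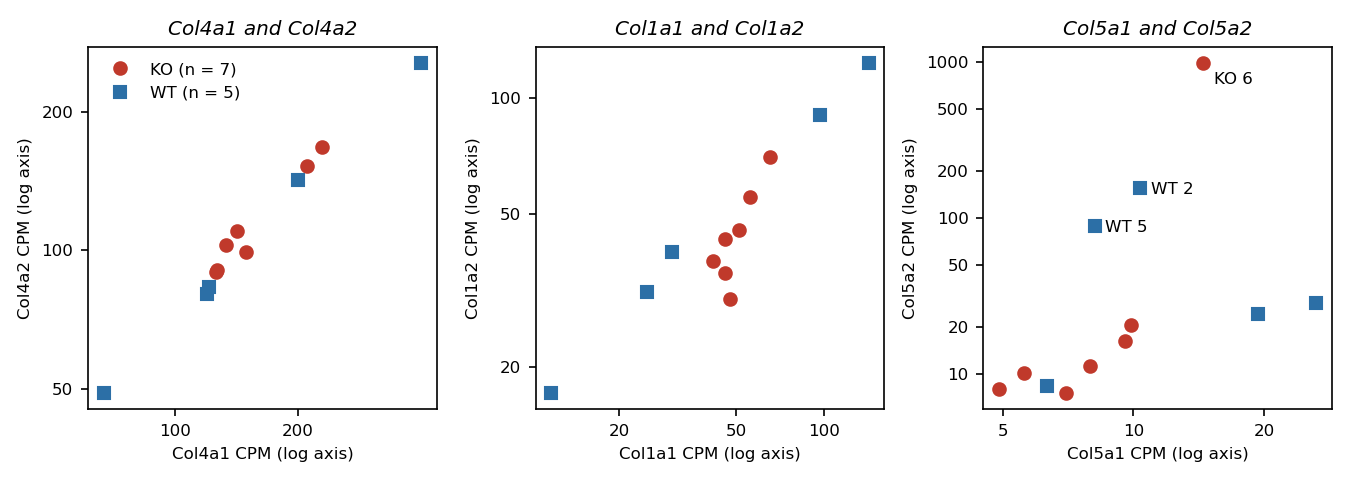
CPM of partner chains in each library (log axes) for Col4a1 and Col4a2, Col1a1 and Col1a2, and Col5a1 and Col5a2, with KO libraries as circles (n = 7) and WT libraries as squares (n = 5). The first 2 pairs lie close to a line (r = 0.992 and 0.933 on log2 CPM), and in the last pair KO replicate 6 and WT replicates 2 and 5 lie above the rest.

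Among all other tested genes, those whose log2 CPM over the 12 libraries was most like Col1a1 were Actr3 (r = 0.913), Naa50, Dusp10, Sdcbp and Slit3, the last with r = 0.872. The median r of Col1a1 with the other tested collagens was 0.129. Those most like Col4a1 were Cd93 (r = 0.962), a surface protein of endothelial cells, Gnb4, the chemokine receptors Cxcr4 and Ackr3, and Cdc42ep3 (r = 0.908), while the median r of Col4a1 with the other collagens was 0.303. These are descriptions over libraries that share their depth and scaling, picked as the highest of all genes.

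The genes that process, cross-link and break down collagen were described from lists, beside a median of 0.03 for all genes. In each list 0 genes passed edgeR's adjusted p of 0.05. Counts at an unadjusted p under 0.05 in these lists and in the marker lists stand against 7.25% of all genes higher and 7.44% lower. DESeq2 called P4ha1, Tgm2, Mmp8, Mmp19, Pdgfc and Bambi among the pathway lists, and limma-voom with sample weights called 3 genes of crosslinking, 2 of breakdown and 8 of TGF-beta and PDGF signalling. The shares of all genes called were 1.68% (higher) and 1.65% (lower) in DESeq2. In the weighted limma-voom test they were 6.4% and 8.18%. Of 19 tested genes of chain processing in the endoplasmic reticulum, 10 had positive and 9 negative fold changes, with a median of 0.01. At an unadjusted p under 0.05, 2 were lower in KO: P4ha1, a catalytic subunit of prolyl 4-hydroxylase, at −1.33 ± 0.36 (SE; edgeR adjusted p = 0.195), and Serpinh1, the collagen chaperone HSP47, at −0.95 ± 0.43 (adjusted p = 0.333). Without WT replicate 4 Serpinh1 was at −0.34 (edgeR adjusted p = 0.660). P4ha1 ran from 8.54 to 19.3 CPM in KO and from 18.5 to 71.0 CPM in WT, with 6 of 7 KO libraries below every WT library. Of 18 genes of propeptide cleavage and crosslinking 11 were negative and 7 positive, with a median of −0.29. Tgm2, a transglutaminase that cross-links matrix proteins, had −1.37 ± 0.33 (SE; adjusted p = 0.186) with 6 of 7 KO libraries below every WT library, and Loxl4, a lysyl oxidase, had −1.04 ± 0.42 (adjusted p = 0.291).

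Of 17 genes of collagen breakdown 8 were positive and 9 negative, with a median of −0.13, with 3 higher and 1 lower before adjustment at p under 0.05. Mmp8, the collagenase of neutrophils, had 3.51 ± 1.07 (SE; adjusted p = 0.217), Mmp9, a gelatinase, 2.05 ± 0.82 (adjusted p = 0.291), and Timp1, an inhibitor of these proteases, 1.67 ± 0.69 (adjusted p = 0.298). Mmp8 and Mmp9 were both highest in KO replicate 3, at 26.8 and 47.4 CPM, and without that library their log2 fold changes were 2.50 and 1.29. The 8 neutrophil markers had positive fold changes, with a summed level from 27.0 to 1617 CPM in KO, highest in KO replicate 3, and from 21.8 to 49.8 CPM in WT. The KO median of that sum was 39.5 CPM, inside the WT range, and 3 of 7 KO libraries lay above every WT library. DESeq2 called 7 of the 8, against 1.68% of all genes called higher, and limma-voom with sample weights called 0. The part of neutrophils in the Mmp8 and Mmp9 values was not tested. Mmp19 had −0.49 ± 0.12 (SE; adjusted p = 0.186), with 6 of 7 KO libraries below every WT library.

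Of 10 collagen receptors 5 were positive and 5 negative, with 0 at an unadjusted p under 0.05. Ddr1, a receptor kinase that collagen activates, had 1.13 ± 0.52 and was at 128 CPM in KO replicate 5 and between 10.6 and 26.3 CPM in WT. Of 20 partners of collagen in basement membranes 11 were positive and 9 negative, with a median of 0.10. Lama3 had 2.17 ± 0.91 (SE; edgeR adjusted p = 0.305) and Lama1 −1.45 ± 0.65 (adjusted p = 0.326), both laminin alpha chains. Nid1, which links laminin to type IV collagen, had 0.15 ± 0.49, and Sparc, which binds collagen, had 0.95 ± 0.66; both were highest in KO replicate 5, without which Sparc was at −0.10.

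TGF-beta and PDGF are main signals that drive collagen production, and the list of their signalling genes also holds inhibitors, such as Bambi. Of its 31 tested genes 20 were positive and 11 negative, with a median of 0.17. Before adjustment, 5 were higher at p under 0.05, against 7.25% of all genes, and 1 lower, against 7.44%. Pdgfc, a ligand, had 1.23 ± 0.32 (SE; edgeR adjusted p = 0.195), and Bambi, a decoy receptor for TGF-beta, 1.36 ± 0.39 (adjusted p = 0.209), each with 6 of 7 KO libraries above every WT library. Thbs1, which activates latent TGF-beta, had 1.25 ± 0.42 (adjusted p = 0.242), and Smad2, a transducer of the signal, 0.48 ± 0.17 (adjusted p = 0.248). These 4 are the genes of smallest p in the list, and none of them passed edgeR's adjusted p. DESeq2 called Pdgfc and Bambi, and limma-voom with sample weights all 4.

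Markers of the cells that make collagen were summed in each library. Of the 12 markers of quiescent stellate cells, 9 were negative and 3 positive, with a median of −0.73 and 4 lower at an unadjusted p under 0.05. Angptl6 ran from 2.57 to 4.87 CPM in KO and from 5.34 to 10.04 CPM in WT, without overlap, a downward separation that 0.58% of all genes had. Its log2 fold change was −0.92 ± 0.23 (SE; edgeR adjusted p = 0.195). Pth1r (−1.47 ± 0.49), Colec11 (−1.10 ± 0.41) and Ngfr (−1.59 ± 0.65) each had 6 of 7 KO libraries below every WT library, with KO replicate 6 the exception, as for Col14a1. Without that library edgeR called Pth1r (−2.10, adjusted p = 0.0333) and Ngfr (−2.48, adjusted p = 0.0460), where 0.353% of all genes were called lower. The summed level of the list ran from 279 to 556 CPM in KO and from 229 to 447 CPM in WT. Reln, a member of the list with the opposite sign, had 0.99 ± 0.70 and was between 11.1 and 209 CPM in KO, with 1.84 without WT replicate 1. All 12 were tested, and 0 passed in edgeR. DESeq2 called Angptl6, against 1.65% of all genes called lower. The limma-voom test with sample weights called 4, Angptl6, Pth1r, Colec11 and Ngfr, against 8.18% of all genes called lower. The part of these cells in the Col14a1 value was not tested.

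Markers of myofibroblasts, the activated collagen-making cells, were mixed: of 9 tested, 6 were positive and 3 negative, with a median of 0.10 and 1 lower at an unadjusted p under 0.05. Acta2, their defining actin, ran from 7.91 to 21.2 CPM in KO and from 2.53 to 25.6 CPM in WT, with a log2 fold change of 0.09 ± 0.47, and Postn had −0.99 ± 0.42. Of 8 tested markers of portal fibroblasts and mesothelium 6 were positive, with sums from 53.3 to 101 CPM in KO and 49.3 to 123 CPM in WT, and of 7 markers of smooth muscle and pericytes 3 were positive and 4 negative. All 9 markers of sinusoidal endothelium, the vessel lining of the liver, had negative fold changes, with a median of −1.22, 5 at an unadjusted p under 0.05 (7.44% of all genes lower), and 6 called by limma-voom with sample weights (8.18% of all genes lower). Their sum ran from 88.0 to 610 CPM in KO and from 350 to 685 CPM in WT, with 6 of 7 KO libraries below every WT library and KO replicate 6 again the exception. Of the 10 markers of capillary endothelium 4 were positive and 6 negative. Their sum ran from 251 to 663 CPM in KO and from 353 to 523 CPM in WT. In 5 of 7 KO libraries it was below every WT library, and KO replicate 6 was above them all. Of 10 macrophage markers 7 were negative, with sums from 347 to 1909 CPM in KO and 652 to 1029 CPM in WT. There 6 of 7 KO libraries lay below every WT library and KO replicate 6 above them all. DESeq2 and the weighted limma-voom test each called Kdr of the capillary list, and the latter Clec4f of the macrophage list. Of 8 cholangiocyte markers 7 were positive. Of the 10 markers of fat, cartilage and skeletal muscle only 2 were tested, and 7 stayed under 1 CPM in every library (Plin1, Acan, Comp, Matn3, Ckm, Acta1 and Myh4). The part of any of these cells in the collagen values was not tested.

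The libraries at the extremes were few. WT replicate 4 was highest of all 12 libraries in 8 of the 28 tested collagens and WT replicate 1 in 5, while WT replicate 3 was lowest in 9 and KO replicate 2 in 8. Over the 28 the median deviation from the mean of all libraries was 1.04 on the log2 scale in WT replicate 4 and 0.60 in KO replicate 6, and it was −0.73 in KO replicate 2 and −0.58 in WT replicate 3. The extremes of both signs thus fell in both genotypes.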

How the data were processed

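Total RNA of liver tumours was extracted with Trizol and used where its integrity number was above 8.0, per the labels' protocols. The deposited table holds raw read counts per gene, and the authors aligned the reads with HISAT2 to mm10, per the submitters' processing notes, which give no version. No source used here names the counting program, its strand setting or the annotation.

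Genotype labels put 7 libraries in KO and 5 in WT. Genes were filtered with filterByExpr (minimum count 10, total 15), scaled by TMM and tested in edgeR 4.0.16 (R 4.3.3) by robust quasi-likelihood F-tests over all 14666 genes, with Benjamini-Hochberg adjusted p at 0.05 (common biological coefficient of variation 0.492). An SE is the absolute log2 fold change divided by the root of F. DESeq2 1.42.0 and limma-voom 3.58.1, other scalings and filters, depth and Xist class and leaving out each library were alternatives. The depth classes divide the libraries at the widest gap in total counts.

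Log2 CPM used a prior count of 2. RPKM used the principal transcript length of GENCODE vM21, and all 44 collagens matched by symbol. Exact permutation tests ran over 792 regroupings (smallest p 0.00126), and those of correlations over 100000 resamples. On simulated counts for this comparison over 14477 genes, the test found 39 and 42 of 50 genes set 4-fold up and down, 24 and 16 of 50 set 2-fold up and down, and 7 genes that had been left alone. The changed genes were drawn from the more abundant ones. Each gene had the same dispersion in both groups, and no outlying library was added. These shares therefore do not carry over to rare collagens, or to those with outlying libraries or unequal spread, such as Col5a2 and Col1a1.

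Values per library are given for the 2 collagens of each class with the highest mean RPKM where these were tested. They are also given for the 8 with the smallest p and for any with no overlap between groups. Other genes are, for each list, the 4 of smallest p and a few pathway genes. Members and lists were chosen with earlier results of these data known.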

Additional observations from a re-analysis of the deposited data

Results flagged for a closer look

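Of 74 groups of 5 or 7 libraries checked for a library far from the others, 13 had one. A chance rate of about 1 in 20 assumes independent groups of normal spread. These groups share values, since class sums hold the single genes, so the 13 cannot be set against that rate. For single genes, in log2 CPM, these were Col5a2 in KO replicate 6 (9.94, next 4.37), Col4a5 in KO replicate 2 (lowest, −3.95), Col27a1 in KO replicate 5 (4.53) and in WT replicate 4 (4.49), and 3 lowest WT libraries: Col5a3 in WT replicate 1 (2.57), Col6a6 in WT replicate 3 (−1.27) and Col8a1 in WT replicate 3 (−1.53). For class sums in RPKM, KO replicate 6 was far above the other KO libraries in fibrillar (192), type VI (14.4) and FACIT (16.3) collagens. KO replicate 4 was far above them in the network-forming class (1.73), WT replicate 3 was lowest there (0.0550), and WT replicate 4 was highest in the class of other collagens (0.201). KO replicate 6 thus appears in 4 of the 13, where its fibrillar sum is 77.0% Col5a2 and so repeats that gene. Its FACIT sum is mostly Col14a1, which was at 14.0 RPKM in that library. The cause was not tested.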

How the results depend on the processing

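No paired analysis was possible because the replicate numbers follow accession order and the labels pair no samples. With 7 against 5 libraries of uneven spread, no collagen passed edgeR's test (4 of 28 lower and 0 higher at an unadjusted p under 0.05), and the result depended on the tool: DESeq2 called 2 collagens and limma-voom with sample weights 3. Leaving out single libraries gave 0 to 1, the 1 without KO replicate 6. Over all genes, where edgeR called 0, DESeq2 called 489, limma-voom 2138 with and 5 without sample weights, upper-quartile scaling, no filter and the 1-CPM filter 1 each, the depth covariate 3 and the deeper libraries alone 2, and leaving out single libraries gave 0 to 65.

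Log2 fold changes of the other sign were found as follows, none of them past the threshold except Col5a2 in DESeq2, and their cause was not tested. With limma-voom with sample weights they were Col16a1 −0.089, Col1a1 0.71, Col1a2 0.15, Col4a1 0.29, Col4a2 0.35, Col4a6 −0.27 and Col5a2 −1.62, and without weights Col16a1 −0.073, Col1a1 0.23, Col4a1 0.028, Col4a2 0.10, Col4a6 −0.25 and Col5a2 −0.73. With DESeq2 they were Col5a2 −2.10 and Sparc −0.096. With the Xist covariate Col5a2 had −1.08, and with the depth covariate the values were Col16a1 −0.24, Col4a6 −0.54 and Col5a2 −0.063. Among the shallower libraries they were Col12a1 −0.36, Col16a1 −1.27, Col18a1 0.039, Col4a5 −0.46, Col5a2 −0.97, Col8a1 −0.23, Nid1 −0.54 and Sparc −0.49, and among the deeper Col15a1 0.64, Col1a1 1.01, Col1a2 0.65, Col20a1 0.47, Col27a1 1.64, Col3a1 0.33, Col4a1 0.52, Col4a2 0.61, Col5a1 0.21, Col6a1 0.17, Col6a2 0.52, Col6a3 0.069, Col6a5 0.38 and Serpinh1 0.15. Leaving out single libraries gave Acta2 from −0.18 to 0.42, Col16a1 from −0.37 to 0.65, Col1a1 from −0.53 to 0.31, Col1a2 from −0.64 to 0.019, Col20a1 from −0.30 to 0.046, Col27a1 from −2.01 to 0.80, Col4a1 from −0.39 to 0.33, Col4a2 from −0.26 to 0.39, Col4a6 from −0.091 to 0.77, Col5a2 from −2.32 to 1.99, Col6a1 from −0.82 to 0.054, Col6a2 from −1.002 to 0.098, Col8a1 from −0.10 to 0.66, Nid1 from −0.23 to 0.36 and Sparc from −0.10 to 1.26.

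The log2 difference of Col1a1 over Col3a1 stayed positive within the shallower (0.87), deeper (0.71), Xist-low (1.17) and Xist-high (0.19) libraries, which are subsets of fewer samples. So did that of Col1a2 over Col3a1 (0.44, 0.34, 0.56 and 0.14). Neither passed among the shallower libraries. The smallest exact permutation p possible was 0.1 among the deeper and 0.0667 among the Xist-low libraries. Since the Xist-high libraries hold 1 WT library, a p under 0.05 could be reached in none of these last subsets. Col4a1 over Col4a2 had 0.022 among the Xist-low libraries, and fibrillar over type IV 0.61 among the Xist-high ones.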

Other observations

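Col13a1 and Col22a1 shared with Col5a2 the libraries in which they were high, a pattern seen only after their values were known. Col22a1 was at 4.82, 11.1 and 10.3 CPM in KO replicate 6, WT replicate 2 and WT replicate 5, and at most 0.914 CPM in the other 9 libraries. Col13a1 was at 5.34, 7.70 and 4.52 CPM in the same libraries, and at most 3.02 CPM elsewhere. Over the 12 libraries the log2 CPM of Col5a2 had r = 0.752 with Col13a1 and r = 0.736 with Col22a1, ranks 180 and 235 among all other tested genes. Of those genes Pik3r5, a subunit of a phosphoinositide kinase of blood cells, was the most similar (r = 0.943), at 22.5 CPM in KO replicate 6 and at most 6.67 CPM in the 9 other libraries. All 3 libraries are among the deeper ones.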
